A study of Homo sapiens with 14 samples.

Results

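The Fanconi, homologous recombination and checkpoint genes described here are 39 genes whose products repair DNA crosslinks and chromosome breaks or signal their presence. They were chosen by name, through the gene symbol that the array annotation gives to a transcript cluster, the group of probes summarised as 1 value. Of the 39, 33 had a cluster of their own among 18377 genes with one, and the rule uses names alone, although the list of names was drawn up with earlier results of these data known. The filter on dim genes, which keeps the 11026 brightest of those genes, let 28 of the 33 into the tests. FANCB, FANCM, RAD54B, NBN and BLM lay under it. RAD51D and ATRIP shared a cluster with another gene, and FANCA, FANCD2, BRCA2 and RBBP8 had no cluster under their symbol and were not analysed here. The 33 genes had mean levels of 4.75 to 8.85 over all arrays, in the log2 units of the deposited values.

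The samples were 14 Affymetrix whole-transcript arrays of MiaPaCa2 cells, an established line from a human pancreatic cancer, after transfection with a small interfering RNA (siRNA) against a gene or with a scrambled one (siCtrl). An NF-kB set of 6 arrays held siRelA, siRelB and siCtrl cells after 9 h in Earle's balanced salt solution (EBSS, described in the labels as free of glucose, amino acids and growth factors) or after 9 h in mock. A Nupr1 set of 8 arrays held siNupr1 and siCtrl cells, sampled at 0 h or once EBSS had been on them for 3, 6 or 9 h. The study asked whether NUPR1, a small stress-induced chromatin protein, and RELB and RELA, subunits of the transcription factor NF-kB, control different genes in starved cells. The labels do not say what the mock medium contained, and the 0 h arrays are named DMEM in their titles and 0 h of EBSS in their source field, so they were used as unstarved with that doubt. For the 9 h siNupr1 array the sample title and the source field disagree on the siRNA, and the source field was followed. The protocol lists a pair of siRNAs each for NUPR1 and RELB without saying which was on the arrays.

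Each group of cells had 1 array, and nothing says that arrays came from separate cultures. Differences below are log2 differences ± SE from limma, fitted to all 14 arrays at once, so that the same contrast is carried by several pairs of arrays. Their p-values were adjusted by Benjamini-Hochberg over 11026 genes. The spread behind them is how far these arrays lie from the sum of the fitted set, siRNA and state effects. With 1 array per group it is no spread between replicates. It may be technical, and it may hold siRNA effects that change with time or medium. A gene is said to have risen or fallen where the adjusted p was under 0.05. KRT18, a keratin, and VIM, a mesenchymal filament, averaged 13.01 and 12.65, 0 of 4 endothelial markers passed the filter, and 2 of 5 leukocyte and 1 of 5 acinar markers did. EPCAM and CDH1, epithelial markers, lay under it at 3.56 and 4.53. NUPR1 was lower with siNupr1 by -0.87 ± 0.10 (adjusted p = 1.95e-05), RELA with siRelA by -2.49 ± 0.13 (adjusted p = 2.96e-10) and RELB with siRelB by -1.32 ± 0.17 (adjusted p = 3.62e-05). RELB was also lower with siNupr1, by -0.67 ± 0.12 (adjusted p = 0.000945).

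The Fanconi pathway removes crosslinks that tie the strands of DNA together. Its core complex, with FANCL as the catalytic subunit and UBE2T as its ubiquitin-conjugating partner, marks FANCD2 and FANCI with ubiquitin, and USP1 takes the mark off again. The nuclease FAN1 and the nuclease scaffold SLX4 cut the damaged strand. Homologous recombination then copies the lost sequence from an intact sister: MRE11, RAD50, NBN and EXO1 trim the broken end, BRCA1 with BARD1 and BRCA2 with PALB2 prepare the end for strand exchange, and XRCC2, XRCC3, RAD51C, RAD51AP1 and RAD54L help that step. ATM and ATR are the kinases that sense breaks and stalled replication, TOPBP1 switches ATR on, and CHEK2 and CHEK1 carry the signal to the cell cycle. Many of these genes are transcribed mainly in cells that are copying or about to copy their DNA.

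**Figure D1:**
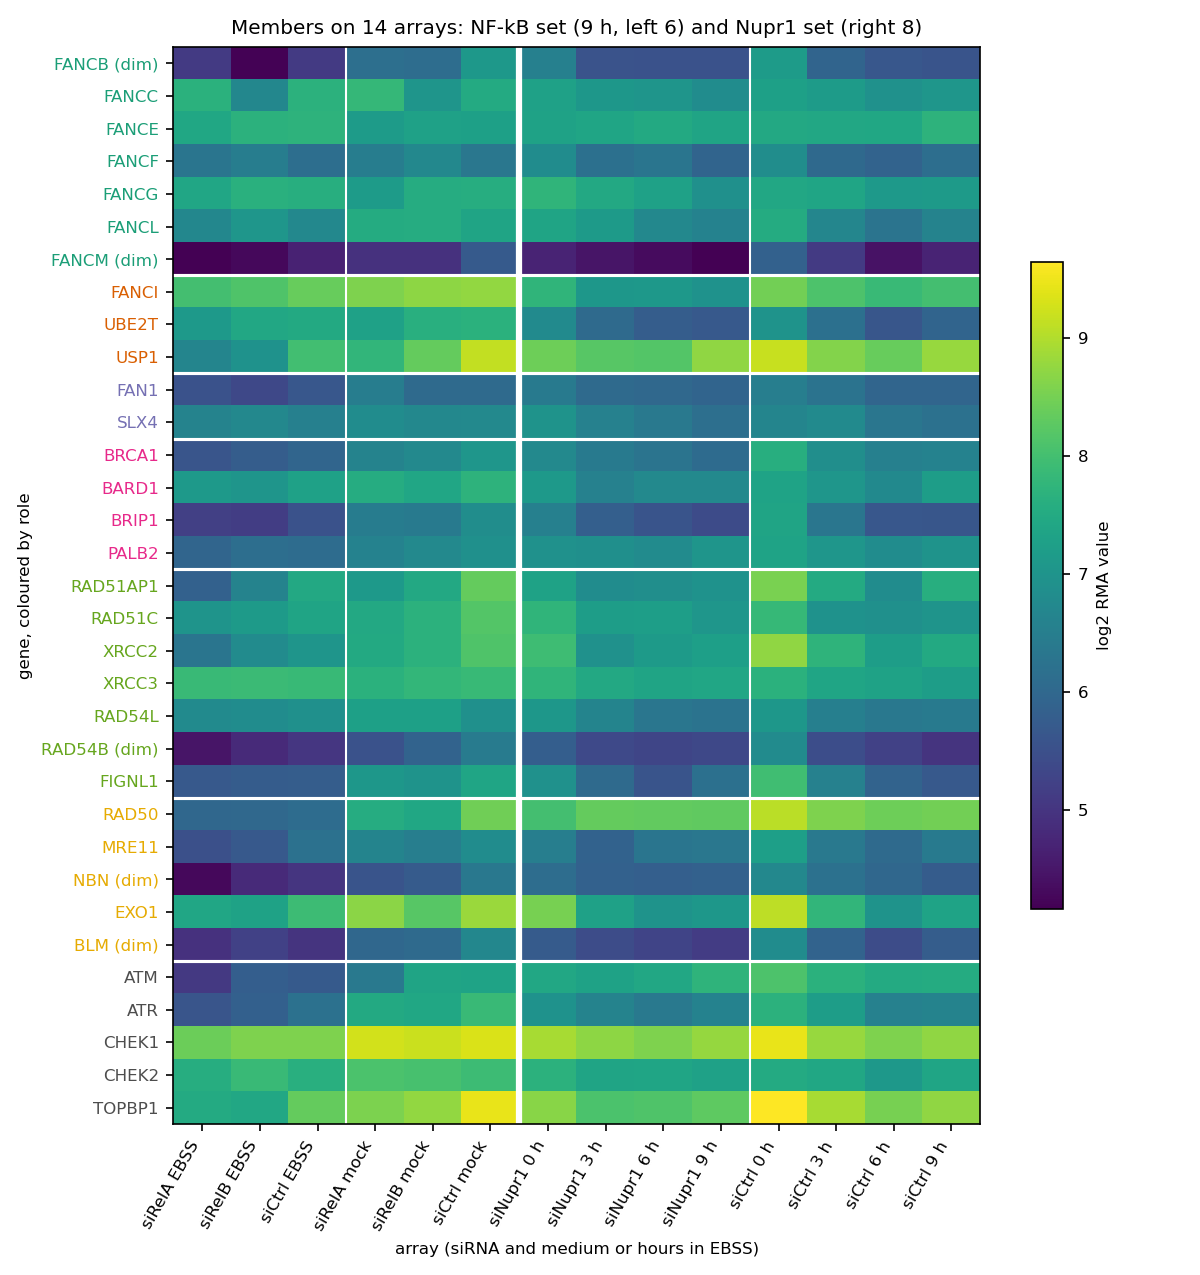
Level of each of the 33 genes with a cluster of its own (rows, grouped by role) on each of the 14 arrays (columns), in log2 units shown by colour. Along most rows the EBSS columns are darker than the mock and 0 h columns, as for ATR with 5.60 to 6.20 in EBSS and 7.43 to 7.88 in mock. Colours are read along a row, since levels of different genes cannot be set against each other.

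In the NF-kB set these genes were lower after 9 h in EBSS than in mock. Of the 28 tested, 21 fell and 1 rose, while 29.3% of all tested genes fell and 22.6% rose. Their median difference was -0.69, against 0.05 for all tested genes. In 20 of them each of the 3 EBSS arrays lay below each of the 3 mock arrays, which was so for 22.7% of all genes, and 10 were at least 2-fold lower, against 5.02% of all genes. Since the arrays measure pooled cells, fewer cells in the phase that uses a gene and less of its RNA per cell cannot be told apart. Of 23 tested genes of mitosis 19 fell as well, with a median of -0.63, and of 32 genes of DNA replication 25 fell, with a median of -0.56. The part of the cell cycle in the values of the repair genes was not tested.

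The checkpoint genes and the genes of end trimming had the lowest medians of the roles, -1.16 over 5 genes and -1.03 over 3, and all 8 of them fell. ATR stood at 5.60, 5.84 and 6.20 on the siRelA, siRelB and siCtrl arrays in EBSS, against 7.49, 7.43 and 7.88 on the same arrays in mock. The groups were more than 1 log2 unit apart at their nearest, and the fitted difference was -1.72 ± 0.12 (3 pairs, adjusted p = 2.92e-09). ATM, the kinase that responds to breaks, had 5.06, 5.79 and 5.72 in EBSS with siRelA, siRelB and siCtrl, against 6.38, 7.36 and 7.33 in mock (-1.50 ± 0.13, adjusted p = 2.20e-08). TOPBP1 fell by 1.16 ± 0.11 on the log2 scale. CHEK1, the kinase downstream of ATR, averaged 8.52 in EBSS and 9.27 in mock (-0.74 ± 0.11, adjusted p = 9.99e-06). CHEK2, downstream of ATM, fell by 0.33 ± 0.11, the smallest fall among the 5 checkpoint genes tested.

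RAD50, the ATPase that tethers broken ends, had the largest fall of all the tested members in this comparison. It stood at 5.99, 6.02 and 6.09 in EBSS with siRelA, siRelB and siCtrl, against 7.56, 7.42 and 8.46 in mock (-1.78 ± 0.17, adjusted p = 4.99e-08). The EBSS arrays were close together and the siCtrl mock array was the highest, so the siRelA and siRelB pairs gave -1.57 and -1.41 and the siCtrl pair -2.37. EXO1, an exonuclease that lengthens the trimmed end, fell by 1.03 ± 0.12. MRE11, the nuclease that works with RAD50, fell by 0.86 ± 0.15.

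All 4 tested genes of BRCA proteins and their partners fell. BRIP1, a helicase that binds BRCA1, stood at 5.19, 5.16 and 5.53 in EBSS with siRelA, siRelB and siCtrl, against 6.46, 6.40 and 6.85 in mock (-1.28 ± 0.13, adjusted p = 1.46e-07). Its 3 pairs differed by -1.32 to -1.24. These EBSS values lay under the filter's level of 5.805, which BRIP1 passed on its mean over all arrays. BRCA1 had 5.60, 5.77 and 5.95 in EBSS and 6.62, 6.75 and 7.04 in mock, in the same order of siRNAs (-1.03 ± 0.12, adjusted p = 4.54e-07). PALB2, which links BRCA1 to BRCA2, fell by 0.68 ± 0.11. BARD1, the partner that stabilises BRCA1, fell by 0.41 ± 0.11.

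Among the genes that help strand exchange, 5 of 6 fell. XRCC2, a recombination gene, stood at 6.29, 6.81 and 7.01 in EBSS with siRelA, siRelB and siCtrl, against 7.49, 7.69 and 8.14 in mock (-1.07 ± 0.13, adjusted p = 1.32e-06). FIGNL1, an ATPase of recombination, fell by 1.40 ± 0.18. RAD51AP1, which aids strand pairing, had 5.86, 6.61 and 7.47 in EBSS and 7.11, 7.46 and 8.34 in mock, in the same order of siRNAs (-0.99 ± 0.15, adjusted p = 2.81e-05). Its siCtrl array in EBSS was above its siRelA array in mock, so the media overlapped while each pair showed the fall. RAD51C and RAD54L fell by 0.60 ± 0.11 and 0.32 ± 0.11. XRCC3, the partner of RAD51C, differed by 0.10 ± 0.10 and was not called.

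In the Fanconi core complex 1 of 5 tested genes fell, FANCL, and 1 rose, FANCE. Over all tested genes 29.3% fell and 22.6% rose, so neither count is above its share. FANCC, FANCF and FANCG were not called, with differences of -0.09, -0.21 and 0.12. FANCL stood at 6.69, 7.04 and 6.72 in EBSS with siRelA, siRelB and siCtrl, against 7.53, 7.55 and 7.36 in mock (-0.66 ± 0.12, adjusted p = 0.000193). FANCE, the subunit that binds FANCD2, averaged 7.61 in EBSS and 7.25 in mock (0.36 ± 0.10, adjusted p = 0.00725), and all 3 mock arrays lay below all 3 EBSS arrays, which held for 23.1% of all genes.

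Of the genes around the FANCD2 and FANCI mark, USP1, which removes it, and FANCI fell. USP1 had 6.66, 6.95 and 7.99 in EBSS with siRelA, siRelB and siCtrl, against 7.77, 8.35 and 9.13 in mock (-1.22 ± 0.12, adjusted p = 6.41e-08), again with overlap of the media and a fall in each pair. FANCI fell by 0.51 ± 0.10. UBE2T, which adds the mark together with FANCL, differed by -0.17 ± 0.11 and was not called (adjusted p = 0.169). FAN1 stood at 5.53, 5.35 and 5.64 in EBSS and 6.49, 6.06 and 6.05 in mock, in the same order of siRNAs (-0.69 ± 0.12, adjusted p = 8.60e-05), while SLX4 differed by -0.13 ± 0.11.

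**Figure D2:**
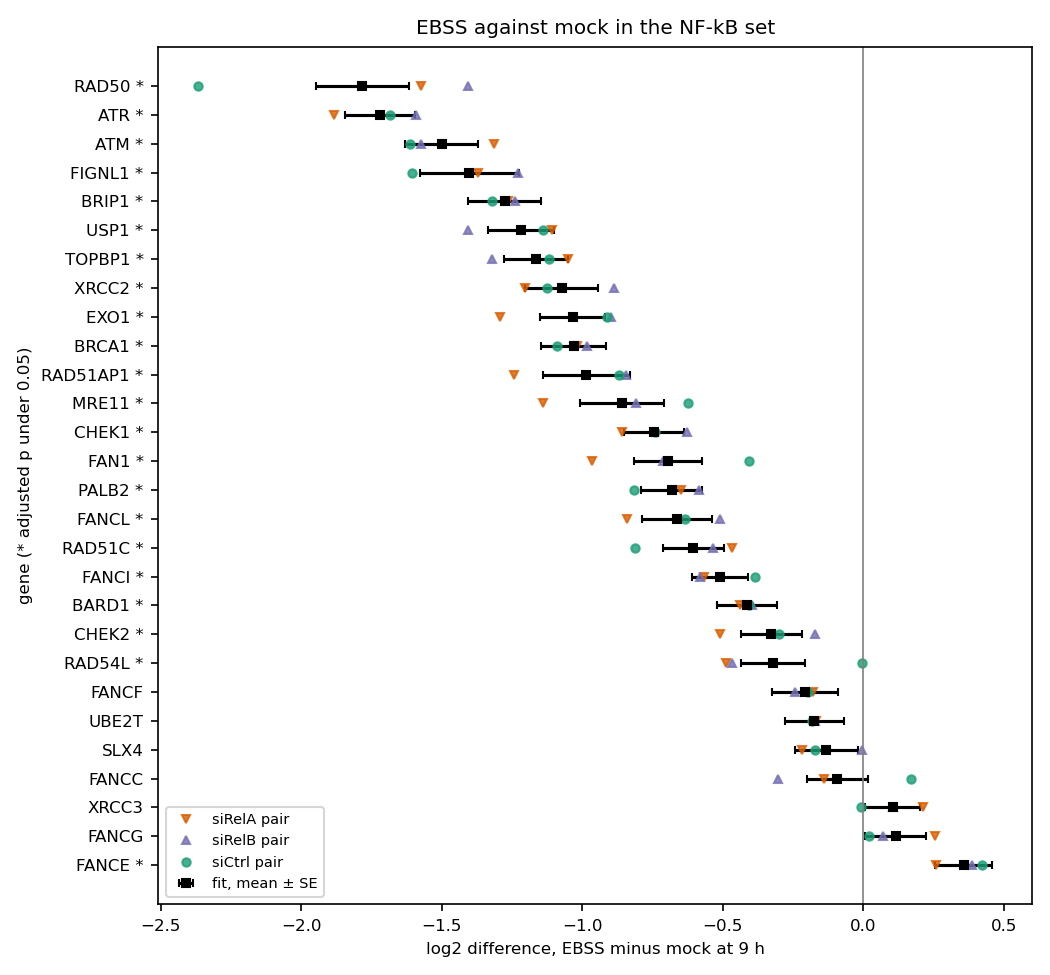
Log2 difference between EBSS and mock at 9 h for each of the 28 tested genes, as 3 pairs of arrays (coloured marks, 1 per siRNA) and as the fitted value with its SE (black). The falls run down to -1.78 for RAD50, and FANCE alone among the called genes lies right of 0.

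A gene's span in the genome moved with this comparison. Across the 28 members the difference had a Spearman correlation of -0.42 with span, and across 11019 tested genes also -0.42, so longer genes were lower in EBSS in general. The median span was 42.5 kb among the tested members and 24.7 kb among all tested genes. These are correlations across genes of the same arrays and carry no test. When the trend with span over all genes was taken out, BARD1, CHEK2 and RAD54L no longer passed (adjusted p = 0.122, 0.171 and 0.0576), UBE2T and FANCF did (-0.29 and -0.39, adjusted p = 0.0315 and 0.0139), and the other 18 falls stayed past the threshold. Leaving out 1 array ended the call of FANCE (without the siCtrl array in EBSS or in mock, highest adjusted p = 0.0513), of CHEK2 (without a siRelA array) and of RAD54L (without any of the siRelA or siRelB arrays, highest adjusted p = 0.187).

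The Nupr1 set followed the genes over hours. After 3 h in EBSS 16 of the 28 were lower than at 0 h, after 6 h 23 were and after 9 h 19 were, while 0 rose at any of the 3 times. At an unadjusted p under 0.05 in limma 19, 25 and 21 differed, against 26.5%, 35.2% and 35.1% of all genes. Over all tested genes 9.07%, 15.7% and 15.1% fell at 3, 6 and 9 h, and 3.27%, 7.65% and 9.19% rose. The members' medians were -0.45, -0.67 and -0.63 at 3, 6 and 9 h, and those of all genes -0.03, -0.01 and -0.04. In 15 members all 6 EBSS arrays lay below both 0 h arrays, against 14.5% of all genes. Of 32 replication genes 25, 31 and 31 fell at 3, 6 and 9 h, and of 23 mitosis genes 16, 23 and 14 did.

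EXO1 had the largest fall of the 28 genes at 9 h. It stood at 8.52, 7.29, 6.97 and 7.06 at 0, 3, 6 and 9 h with siNupr1 and at 9.09, 7.76, 6.97 and 7.34 with siCtrl. Both courses were down by more than 1 log2 unit at 3 h and lowest at 6 h, and the 9 h difference was -1.60 ± 0.14 (2 pairs, adjusted p = 1.55e-07). FIGNL1 had 6.94, 6.06, 5.58 and 6.18 with siNupr1 and 7.95, 6.56, 5.90 and 5.68 with siCtrl (-1.52 ± 0.22 at 9 h). BRIP1 had 6.54, 5.81, 5.59 and 5.42 with siNupr1 and 7.36, 6.32, 5.65 and 5.63 with siCtrl (-1.42 ± 0.16 at 9 h). Both genes started higher with siCtrl, and for BRIP1 siNupr1 minus siCtrl was -0.82 at 0 h and -0.22 at 9 h.

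UBE2T, which was not called between EBSS and mock, fell here at all 3 times. It stood at 6.78, 6.06, 5.78 and 5.68 at 0, 3, 6 and 9 h with siNupr1 and at 6.97, 6.19, 5.63 and 5.92 with siCtrl (-1.07 ± 0.13 at 9 h, adjusted p = 5.96e-06). These 4 genes were at least 2-fold lower at 9 h, as were 0.907% of all tested genes. XRCC2 stood at 7.94, 6.94, 7.14 and 7.26 with siNupr1 and at 8.74, 7.73, 7.22 and 7.49 with siCtrl, and its differences from 0 h were -1.0, -1.16 and -0.96 at 3, 6 and 9 h.

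By role, all 6 tested helpers of strand exchange fell at 6 h and at 9 h, with medians of -0.90 and -0.74. In the core complex FANCF, FANCG and FANCL fell at 6 and 9 h, FANCF by 0.80 ± 0.14 at 9 h, while FANCC and FANCE did not pass at any of the 3 times. Both nuclease genes fell at 6 and 9 h, SLX4 by 0.62 ± 0.14 and FAN1 by 0.52 ± 0.15 at 9 h. Of the 4 BRCA genes and partners BRCA1 and BRIP1 fell at all 3 times, BARD1 at 3 and 6 h, and PALB2 at none of them (-0.14 ± 0.13 at 9 h). In the checkpoint group ATR fell at 6 and 9 h (-0.85 ± 0.15 and -0.72 ± 0.15), and TOPBP1 and CHEK1 at all 3 times. CHEK2 passed at 6 h alone and ATM at none.

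**Figure D3:**
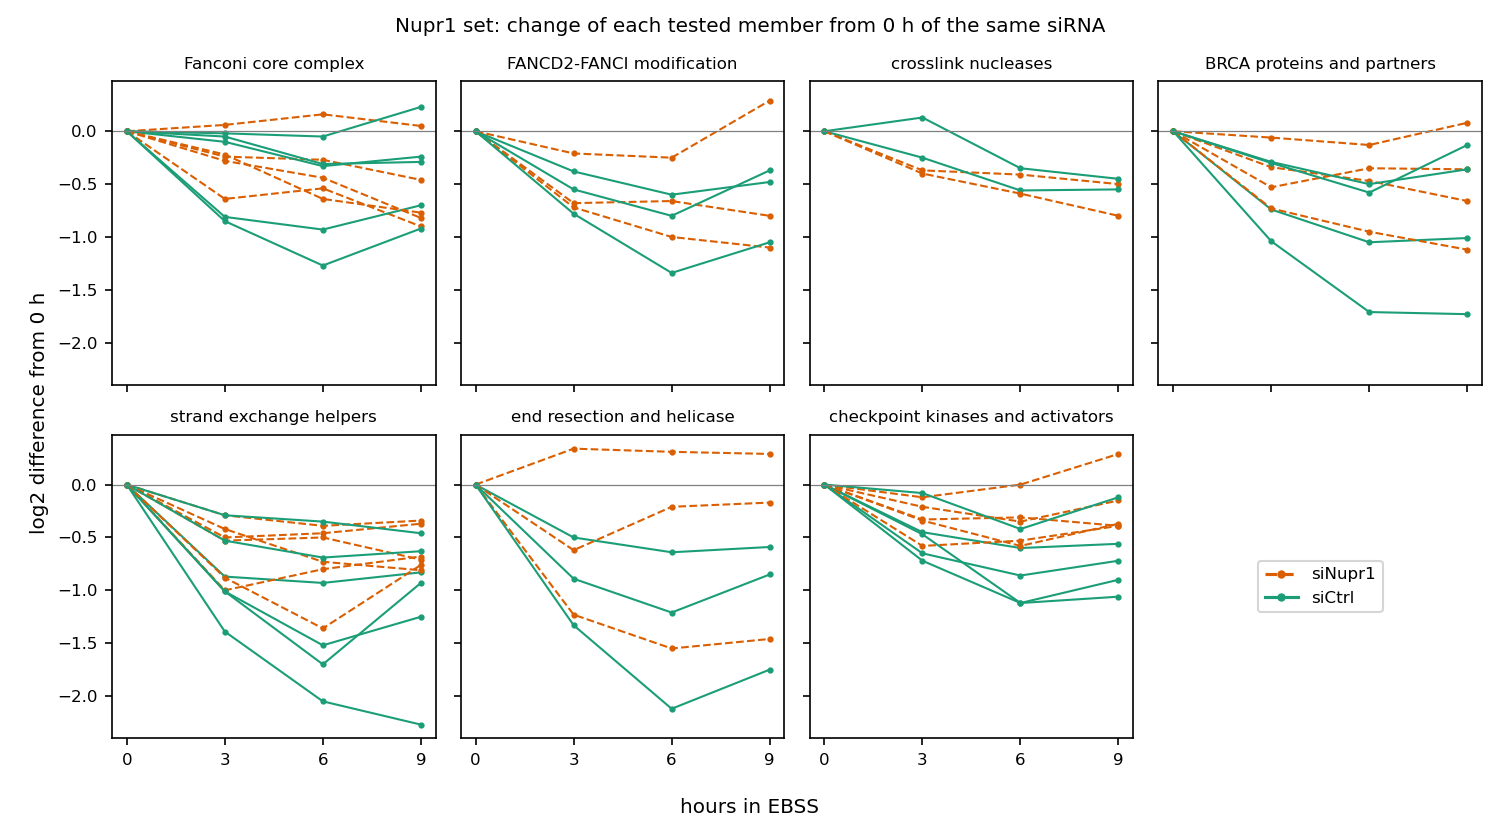
Log2 difference from 0 h of the same siRNA over hours in EBSS (horizontal), with 1 panel per role, 1 line per tested gene and siRNA and 1 array per point, siNupr1 dashed and siCtrl solid. Most lines drop by 3 or 6 h and then level off or turn up, and in the panel of end trimming the dashed line above 0 is RAD50, at 8.01 at 0 h and 8.30 at 9 h with siNupr1.

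Without the siCtrl array at 0 h, the siCtrl array at 3 h or the siNupr1 array at 3 h, fewer genes were called at 3 h over all tested genes too. The members' medians in these fits were -0.32, -0.45 and -0.46. The count of members that fell at 3 h was lower in these fits as well. EXO1, UBE2T and XRCC2 alone kept the 3 h call in every alternative tried. The other 13 each lost it without at least 1 of the arrays at 0 or 3 h, with adjusted p of up to 0.545 (CHEK1 without the siCtrl array at 0 h). At 6 h 13 members kept the call throughout, while the other 10 lost it without at least 1 of the arrays at 0 or 6 h. Without the siCtrl array at 6 h the count of members called was lower, and so were the falls over all tested genes. At 9 h it lay between 13 and 20 with any 1 array left out, and 11 members kept it: BRCA1, BRIP1, EXO1, FANCF, FANCI, FANCL, FIGNL1, RAD51C, RAD54L, UBE2T and XRCC2. Without the siCtrl array at 0 h the 9 h differences of RAD51AP1, CHEK1, TOPBP1 and ATR had adjusted p of 0.43, 0.462, 0.0781 and 0.0731. Without the siNupr1 array at 0 h, SLX4 and FANCG had 0.0786 and 0.0941. Without the siCtrl array at 9 h ATR, CHEK1 and RAD51AP1 had 0.0643, 0.176 and 0.0813, and without the siNupr1 array at 9 h RAD51AP1 and FANCG had 0.0917 and 0.105. FAN1 and XRCC3 were lost without the siCtrl array at 9 h (0.0713 and 0.105) and without either 0 h array.

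Between 3 h and 9 h the genes changed little. SLX4 and BRIP1 fell, by 0.49 ± 0.14 and 0.54 ± 0.16, and 0 rose, while 2.66% of all tested genes fell and 4.68% rose. Neither call held in every alternative: SLX4's had an adjusted p of up to 0.44 and BRIP1's of up to 0.331 with 1 array left out or another filter.

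The response at 9 h differed between the sets for 12 members. Their differences were set against each other in the same fit, as the 9 h change from 0 h in the Nupr1 set minus the EBSS change from mock in the NF-kB set, and 6 were lower and 6 higher, against 8.11% lower and 16.4% higher among all genes. RAD50 stood at 8.30 and 8.48 at 9 h with siNupr1 and siCtrl and at 8.01 and 9.07 at 0 h, so the siRNAs moved opposite ways and the 9 h difference was -0.15 ± 0.20, against -1.78 between EBSS and mock (difference 1.63 ± 0.26, adjusted p = 0.000142). ATM differed by -0.13 ± 0.16 in the Nupr1 set and by -1.50 in the NF-kB set (1.37 ± 0.21, adjusted p = 7.48e-05). USP1 differed by -0.04 ± 0.14 and -1.22 (1.17 ± 0.18, adjusted p = 0.000109). In all 3 the small 9 h value is a mean of opposite moves: with siNupr1 and siCtrl RAD50 differed from 0 h by 0.29 and -0.59, ATM by 0.30 and -0.57 and USP1 by 0.29 and -0.38. Without the siNupr1 array at 0 h RAD50 fell at 6 and 9 h (-0.61 and -0.59, adjusted p = 0.0356 and 0.0429), ATM at 3 and 6 h (-0.59 and -0.61, adjusted p = 0.0324 and 0.0166) and USP1 at 3 h too (-0.64, adjusted p = 0.0111).

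ATR and UBE2T also differed between the sets. ATR fell in both, with -0.72 at 9 h against 0 h and -1.72 in EBSS against mock (difference 1.0 ± 0.20, adjusted p = 0.000925). UBE2T went the other way, with -1.07 and -0.17 (difference -0.90 ± 0.17, adjusted p = 0.000535). Those 5 differences passed under every alternative tried. PALB2 and TOPBP1 were also less low in the Nupr1 set, and FANCG, FANCF, EXO1, XRCC3 and SLX4 lower there, and each of these 7 calls was lost in some alternative, with adjusted p of up to 0.331. The lower count was 2 without the siNupr1 array at 9 h and 3 without either 0 h array, the siCtrl array at 9 h, the siCtrl array in mock or a siRelA array. The sets differ in their reference, 0 h or mock, and in everything else that separated them, and these cannot be told apart. The difference between the sets had a Spearman correlation with genomic span of 0.47 over the 28 members and 0.39 over all tested genes.

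**Figure D4:**
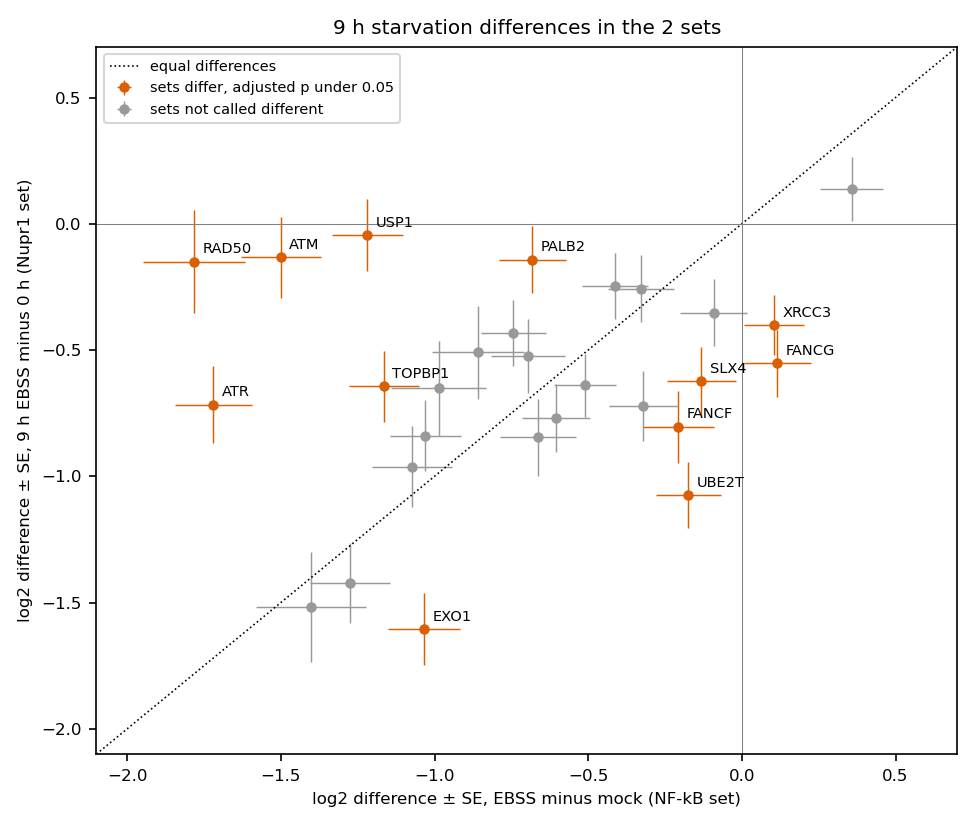
Each tested gene's 9 h difference from 0 h in the Nupr1 set (vertical) against its EBSS minus mock difference in the NF-kB set (horizontal), in log2 units with SE bars. RAD50, ATM and USP1 lie near 0 on the vertical axis and between -1.78 and -1.22 on the horizontal one, and UBE2T lies at -1.07 and -0.17.

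With NUPR1 silenced, 10 of the 28 genes were lower than with siCtrl over the 4 times and 0 were higher, against 8.58% lower and 9.86% higher among all tested genes. At an unadjusted p under 0.05 in limma 12 differed, against 31.5% of all genes. The median was -0.18, against 0.01 for all genes. In 9 members siNupr1 lay below siCtrl at all 4 times, against 16.8% of all genes. Of 23 mitosis genes 12 fell and 0 rose, and of 32 replication genes 5 fell and 1 rose.

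FANCI had the largest fall of the 28 genes. It stood at 7.75, 7.07, 7.09 and 6.95 at 0, 3, 6 and 9 h with siNupr1 and at 8.48, 8.10, 7.88 and 8.0 with siCtrl. Every siNupr1 array was below every siCtrl array (-0.90 ± 0.09, 4 pairs, adjusted p = 2.11e-06). TOPBP1 had 8.67, 8.09, 8.14 and 8.28 with siNupr1 and 9.64, 8.92, 8.52 and 8.74 with siCtrl (-0.66 ± 0.10, adjusted p = 0.000183). BRCA1 had 6.74, 6.40, 6.27 and 6.08 with siNupr1 and 7.60, 6.86, 6.55 and 6.59 with siCtrl (-0.53 ± 0.10, adjusted p = 0.00129). RAD51AP1 had 7.32, 6.82, 6.86 and 6.95 with siNupr1 and 8.53, 7.52, 6.83 and 7.60 with siCtrl (-0.63 ± 0.13, adjusted p = 0.00302), lower in 3 of 4 pairs and level at 6 h. Those 4 calls held under every alternative tried.

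XRCC2, BRIP1, ATR, USP1, EXO1 and BARD1 fell by 0.30 to 0.47 and were less firm. In XRCC2, BRIP1, ATR, USP1 and EXO1 the gap between the siRNAs was widest at 0 h, before starvation. USP1, for example, stood at 8.43, 8.22, 8.18 and 8.72 with siNupr1 and 9.17, 8.62, 8.37 and 8.80 with siCtrl, a difference of -0.74 at 0 h and -0.08 at 9 h. The count was 5 without the siNupr1 or the siCtrl array at 0 h and without both, and 4 without the siNupr1 or the siCtrl array at 3 h. Falls over all tested genes became fewer too. They numbered 655, 652 and 653 without those 0 h arrays and 417 and 416 without those 3 h arrays, against 946 in the main fit. Without the siCtrl array at 0 h ATR, BRIP1, EXO1, USP1 and BARD1 had adjusted p of 0.149, 0.184, 0.153, 0.176 and 0.0589, and without the siNupr1 or the siCtrl array at 3 h XRCC2 had 0.0858 and 0.086. BARD1 was also lost without a 9 h array (0.0951 and 0.0949).

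A change of the siNupr1 difference over hours was tested as the product of siRNA and hours, and 0 of the 28 genes passed, as did 0% of all genes. At an unadjusted p under 0.05 there were 11 members, against 19.5% of all genes. With the Nupr1 set fitted alone 5 passed with a positive slope, FIGNL1, ATM, USP1, RAD50 and TOPBP1, so that their siNupr1 differences became less negative over the hours, and 0 with a negative one, against 2.33% and 5.3% of all genes in that fit. RAD50, not called over the 4 times (-0.39 ± 0.14, adjusted p = 0.0635), differed by -1.06 at 0 h and by -0.22, -0.11 and -0.18 at 3, 6 and 9 h.

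With RELA silenced, 8 of the 28 genes fell and 0 rose over the EBSS and mock pairs, against 11.4% and 10.1% of all tested genes. With RELB silenced 5 fell and 0 rose, against 8.55% and 7.58%. Both use the same siCtrl arrays, so the values are given side by side without counting what they share as a result. At an unadjusted p under 0.05 in limma 15 differed with siRelA and 12 with siRelB, against 32% and 28.4% of all genes. The medians were -0.28 with siRelA and -0.18 with siRelB. In both pairs siRelA was below siCtrl for 20 members and siRelB for 17, against 33.6% and 33.8% of all genes. Of 23 mitosis genes 8 fell with siRelA and 13 with siRelB, and 0 rose with either. Of 32 replication genes 5 fell and 4 rose with siRelA, and 4 fell and 0 rose with siRelB.

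USP1 stood at 6.66 and 7.77 in EBSS and mock with siRelA, at 6.95 and 8.35 with siRelB and at 7.99 and 9.13 with siCtrl. It was lower with siRelA by -1.34 ± 0.14 (2 pairs, adjusted p = 2.67e-06) and with siRelB by -0.91 ± 0.14 (adjusted p = 0.000199). RAD51AP1 stood at 5.86 and 7.11 with siRelA, 6.61 and 7.46 with siRelB and 7.47 and 8.34 with siCtrl (-1.42 ± 0.19 and -0.87 ± 0.19). TOPBP1 stood at 7.50 and 8.55 with siRelA, 7.44 and 8.76 with siRelB and 8.34 and 9.46 with siCtrl (-0.87 ± 0.14 and -0.80 ± 0.14). For these 3 genes the siCtrl array was the highest in each medium. Their siRelA calls held in every alternative, as did the siRelB calls of USP1 and TOPBP1, while RAD51AP1's siRelB call was lost without the siCtrl array in EBSS or the siRelB array in mock (adjusted p = 0.0591 and 0.0789).

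ATM and FANCC differed between siRelB and siRelA. ATM stood at 5.79 and 7.36 in EBSS and mock with siRelB, at 5.06 and 6.38 with siRelA and at 5.72 and 7.33 with siCtrl. It was lower with siRelA by -0.80 ± 0.16 (adjusted p = 0.00129) and differed by 0.06 with siRelB, and siRelB was above siRelA by 0.85 ± 0.16 (adjusted p = 0.00166). FANCC, a core complex subunit, stood at 6.70 and 7.01 with siRelB, at 7.66 and 7.80 with siRelA and at 7.69 and 7.52 with siCtrl. It was lower with siRelB by -0.75 ± 0.13 than with siCtrl (adjusted p = 0.000627) and by -0.88 ± 0.13 than with siRelA (adjusted p = 0.000261). They were the 1 member higher and the 1 lower between the siRNAs, against 5.46% higher and 4.61% lower among all genes. ATM's calls were lost without the siRelA array in mock (adjusted p = 0.0549 against siCtrl and 0.0772 between the siRNAs) or, between the siRNAs, without the siRelB array in mock (0.0527), and FANCC's against siCtrl without the siCtrl array in EBSS (0.0507).

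The other calls were smaller. XRCC2 fell with siRelA by 0.69 ± 0.16, RAD51C by 0.54 ± 0.13, ATR by 0.49 ± 0.15 and UBE2T by 0.37 ± 0.13, and EXO1 fell with siRelB by 0.60 ± 0.14. XRCC2 was lost without the siRelA array in EBSS or the siCtrl array in mock (adjusted p of up to 0.0825) and RAD51C without the siRelA or siCtrl array in mock (up to 0.192). ATR was lost without any of the siRelA or siCtrl arrays (up to 0.275), UBE2T without any array of its set or either 3 h array (up to 0.234), and EXO1 without the siRelB array in mock or the siCtrl array in EBSS (up to 0.14). The siRelA count was lower without the siCtrl or the siRelA array in mock and without the siRelA array in EBSS. The siRelB count was lower without the siCtrl array in EBSS or the siRelB array in mock. Falls over all tested genes were fewer in each of these fits too. The product of siRNA and medium was called for 0 members with siRelA and 0 with siRelB (1 each at an unadjusted p under 0.05, against 5.19% and 3.64% of all genes), and for at most 0.0363% of all genes. With these products the fit leaves no spread in the NF-kB set, and its spread comes from the Nupr1 set alone. The lack of calls therefore does not show that the siRNA differences were equal in both media.

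**Figure D5:**
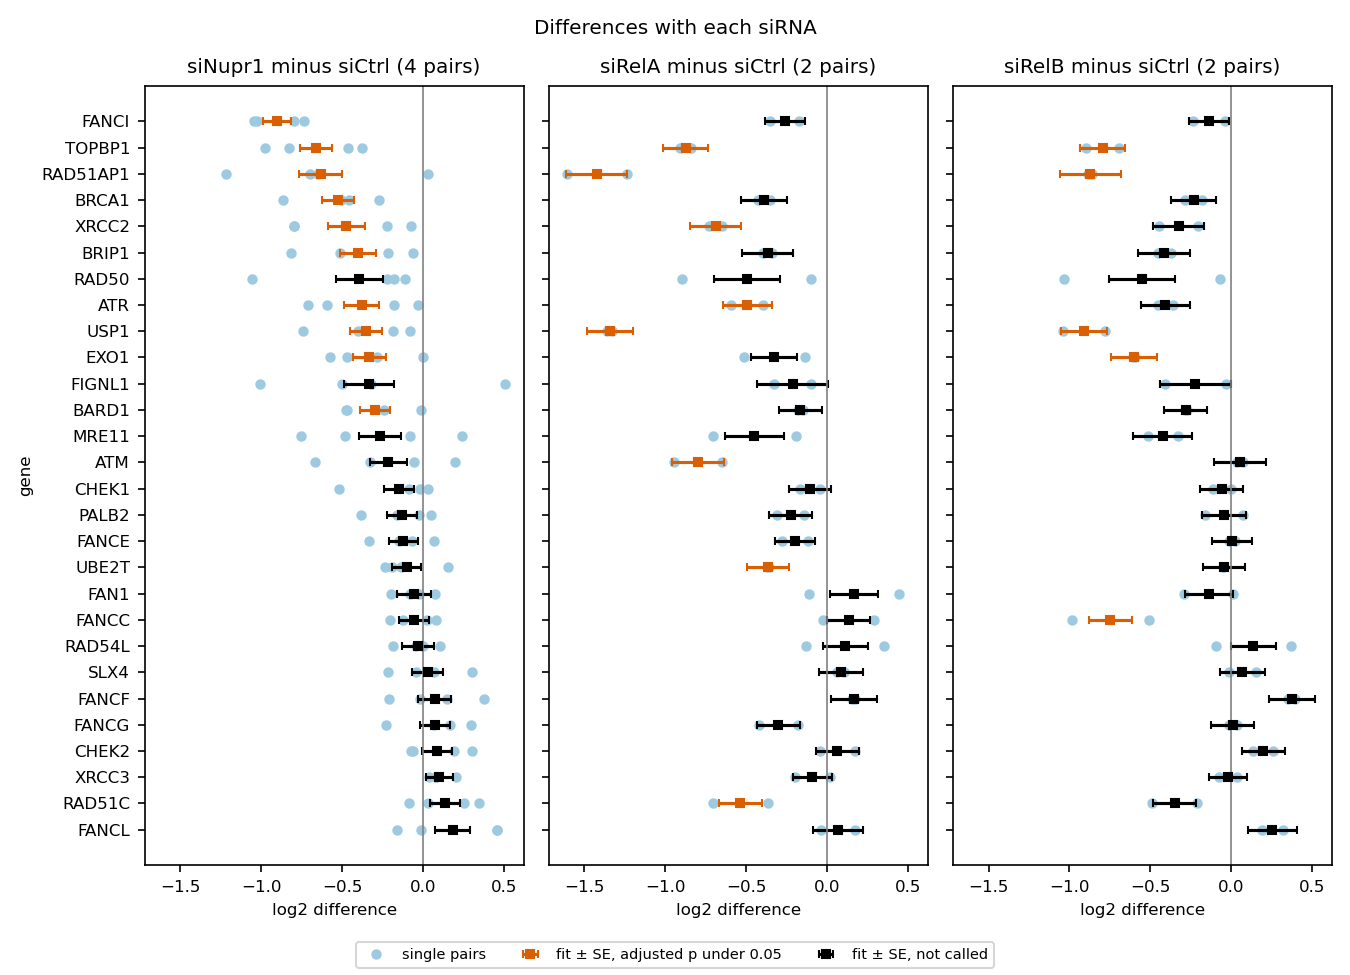
Log2 difference of siNupr1, siRelA and siRelB from siCtrl for each of the 28 tested genes, as single pairs of arrays (pale blue) and as the fitted value with its SE, orange where the gene was called and black where not. Called values lie left of 0 in all 3 panels, with FANCI leading for siNupr1 and RAD51AP1 and USP1 for siRelA and siRelB.

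Set against 7 comparisons, EBSS against mock, 3, 6 and 9 h against 0 h and the 3 silencings, RAD51AP1 and TOPBP1 fell in all 7, as did 0.263% of all tested genes. EXO1 and XRCC2 fell in 6, against 1.18% of all genes. In the 4 starvation comparisons 12 members fell each time and 2, FANCC and FANCE, in none, against 5.24% and 63.4% of all genes. In the 3 silencings 3 fell each time, against 1.83% of all genes, the third being USP1, and 14 in none, against 80.6%, among them CHEK1, CHEK2, FIGNL1 and RAD54L. The comparisons within a set share arrays, so these counts are a description.

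The promoters of 4 of these genes are shown because they differ in the comparisons: RAD51AP1 and TOPBP1 fell in all 7, UBE2T fell over hours and was not called between EBSS and mock, and RAD50 did the reverse. Each is the 250 bases before the first transcription start that RefSeq lists for the gene, on the gene's strand and in GRCh38.p14, with matches to any of 4 motifs in capitals. The motifs were the E2F consensus (TTCCCGC, with TTGGCGC and also TTCGCGC taken as matches), the cell cycle homology region (TTTGAA), the CCAAT box and an NF-kB decamer, each searched on both strands.
RAD51AP1, chr12:4538640-4538889, plus strand: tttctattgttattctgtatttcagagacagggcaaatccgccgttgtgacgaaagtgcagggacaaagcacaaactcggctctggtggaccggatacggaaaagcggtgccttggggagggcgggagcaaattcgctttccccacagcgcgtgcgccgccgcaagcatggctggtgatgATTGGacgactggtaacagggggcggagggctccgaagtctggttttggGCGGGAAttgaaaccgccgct
TOPBP1, chr3:133661942-133662191, minus strand: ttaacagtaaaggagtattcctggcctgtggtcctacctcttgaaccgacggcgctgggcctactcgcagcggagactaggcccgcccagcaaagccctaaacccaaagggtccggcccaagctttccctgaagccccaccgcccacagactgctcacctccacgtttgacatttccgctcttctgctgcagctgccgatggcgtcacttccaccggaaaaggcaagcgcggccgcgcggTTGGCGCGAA
UBE2T, chr1:202341937-202342186, minus strand: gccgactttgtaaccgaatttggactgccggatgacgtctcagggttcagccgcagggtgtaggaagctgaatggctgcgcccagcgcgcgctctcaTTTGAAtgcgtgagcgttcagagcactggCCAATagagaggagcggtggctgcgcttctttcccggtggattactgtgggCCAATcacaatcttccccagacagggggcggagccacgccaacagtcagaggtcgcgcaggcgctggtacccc
RAD50, chr5:132556727-132556976, plus strand: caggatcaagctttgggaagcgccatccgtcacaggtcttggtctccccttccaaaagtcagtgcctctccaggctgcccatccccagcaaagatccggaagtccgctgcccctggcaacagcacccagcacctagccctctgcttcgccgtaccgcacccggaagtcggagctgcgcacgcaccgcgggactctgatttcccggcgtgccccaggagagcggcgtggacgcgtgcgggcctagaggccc
RAD51AP1 had an E2F match and a CCAAT box, both on the opposite strand, TOPBP1 had 2 overlapping E2F matches next to its start, and UBE2T had a cell cycle homology region and 2 CCAAT boxes. RAD50 had no match in this window.

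Of the 39 genes 36 had such a window, among them 27 of the 28 tested. The E2F consensus was found in 6 of the 27 (22.2%), RAD54L, FANCL, TOPBP1, FANCG, FANCC and RAD51AP1, and in 9.5% of the windows of 27305 genes. The CCAAT box was found in 12 (44.4%, against 33% of those windows), the cell cycle homology region in 4 (14.8%, against 13.6%) and the NF-kB decamer in 1, CHEK1 (3.7%, against 9.6%). The 27305 genes include many that were not tested, while the 27 passed the filter on dim genes. The shares are therefore of unlike sets, and shares among the tested genes alone were not computed. A match is a run of letters and not a shown site, and the search covered only these letters in this window. Of the 6 genes with an E2F match, RAD51AP1 and TOPBP1 fell in all 7 comparisons. FANCL and RAD54L fell in the 4 starvation comparisons alone, FANCG in 2 of the 7 and FANCC in 1. BRCA1 and EXO1, without a match in this window, fell in 5 and 6. A part of E2F in these falls was not tested.

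The filter kept 5 members out of the tests, all of them dim. On the siRelA, siRelB and siCtrl arrays FANCB, a core complex subunit, stood at 5.09, 4.20 and 5.09 in EBSS and at 6.17, 6.12 and 7.08 in mock. In a fit without the filter its difference was -1.66 ± 0.16 (adjusted p = 2.49e-07), and NBN, BLM and RAD54B, the MRE11 partner, a helicase and a strand exchange helper, each differed by -1.19 and FANCM, the core's DNA translocase, by -0.83 ± 0.16. At 9 h against 0 h FANCB differed by -1.29 ± 0.19 and RAD54B by -1.14 ± 0.22 in that fit. The filter's level was 5.805 and applied to the mean over all arrays, so tested genes could lie under it in EBSS. BRIP1, FIGNL1, FAN1 and ATM did so on all 3 EBSS arrays of the NF-kB set, and ATR, BRCA1 and MRE11 on some of them. These genes passed the filter through their higher arrays. How far so low a level affects the size of their falls was not tested.

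A list of 58 other genes of the same pathways, 51 of them tested, gave a wider view. Between EBSS and mock 21 fell and 9 rose, with a median of -0.14, against 29.3% and 22.6% of all genes and a median of 0.05. CLSPN, the adaptor through which ATR activates CHEK1, fell (-2.05 ± 0.12), a larger change than that of any of the 28 members. RIF1, which restrains end trimming (-1.93 ± 0.14), the nuclease DNA2 (-1.34 ± 0.12) and the resolvase GEN1 (-1.32 ± 0.13) fell too. At 3, 6 and 9 h 8, 20 and 16 fell and 1, 2 and 3 rose, and CLSPN led each time (-1.11, -1.53 and -1.37). Over all genes 9.07%, 15.7% and 15.1% fell and 3.27%, 7.65% and 9.19% rose. With siNupr1 13 fell and 3 rose, with GEN1 at -0.72 ± 0.11 and ERCC4, a crosslink nuclease subunit, at -0.60 ± 0.12 among the falls and BABAM2, a BRCA1 complex subunit, at 0.63 ± 0.08 among the rises. With siRelA 14 fell and 2 rose, and with siRelB 8 fell and 2 rose. Over all genes 8.58%, 11.4% and 8.55% fell and 9.86%, 10.1% and 7.58% rose with siNupr1, siRelA and siRelB. GEN1, the helicase gene RECQL and the ubiquitin ligase gene RNF168 fell with both, by 0.95, 1.10 and 0.79 with siRelA and by 0.69, 0.63 and 0.62 with siRelB.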

How the data were processed

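RNA of 14 MiaPaCa2 samples was hybridised to Affymetrix whole-transcript arrays. The deposited values are log2 intensities, summarised by the authors with RMA (robust multi-array average), per the submitters' processing notes, which also name limma. No version or genome build is given in the sources used here. The file held 28869 transcript clusters and 0 missing values. The annotation gave 19310 clusters 1 gene symbol and 1752 several, and did not list 7807. The brightest cluster stood for each of 18377 genes, and the 40% with the lowest mean (under 5.805) were not tested. Array medians ran from 5.67 to 5.84, and the number of arrays limits the precision.

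Differences were fitted with limma 3.58.1 in R 4.3.3 on array set, siRNA and state (9 coefficients, 5 residual degrees of freedom, 19.6 with the moderated prior), with an intensity trend, after checks on simulated data. P-values were adjusted by Benjamini-Hochberg over 11026 genes.

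The members and lists were chosen with earlier results of these data known. Named are all members by role, up to 3 per role and comparison by p, values on every array for the leading member of each role and up to 8 members called in a silencing, and up to 4 genes per list. Alternatives were other filters, quantile normalization, array weights, no trend, the mean of a gene's clusters, removal of the trend with genomic span, each set alone and each array left out. A fit without both 0 h arrays was added after the data were seen.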

Additional observations from a re-analysis of the deposited data

Results flagged for a closer look

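For 12 of the 28 genes tested, the 9 h starvation difference of the Nupr1 set (EBSS minus 0 h) differed from that of the NF-kB set (EBSS minus mock) by a test of the difference itself, and these are the values a second look would start from. The Nupr1 set minus the NF-kB set gave 1.63 ± 0.26 for RAD50, 1.37 ± 0.21 for ATM, 1.17 ± 0.18 for USP1, 1.0 ± 0.20 for ATR, 0.54 ± 0.17 for PALB2 and 0.52 ± 0.18 for TOPBP1 (limma, adjusted p of 7.48e-05 to 0.04). It gave -0.90 ± 0.17 for UBE2T, -0.67 ± 0.17 for FANCG, -0.60 ± 0.18 for FANCF, -0.57 ± 0.18 for EXO1, -0.51 ± 0.15 for XRCC3 and -0.49 ± 0.18 for SLX4 (adjusted p of 0.000535 to 0.0495). Of the 28, 6 were higher and 6 lower, while over all tested genes 16.4% were higher and 8.11% lower, so many other genes differed too. The reference of 0 h or mock and the set cannot be told apart.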

How the results depend on the processing

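No member's difference changed sign as a call under any alternative. Of the members called, 18 of 22 between EBSS and mock, 3 of 16 at 3 h, 13 of 23 at 6 h, 11 of 19 at 9 h, 0 of 2 between 9 and 3 h, 4 of 10 with siNupr1, 3 of 8 with siRelA, 2 of 5 with siRelB, 1 of 2 between siRelB and siRelA and 5 of 12 between the sets stayed past the threshold throughout. With 1 array left out in turn the counts of members that fell ran from 5 to 16 at 3 h, 13 to 23 at 6 h, 0 to 2 for 9 h against 3 h, 4 to 11 for siNupr1, 4 to 11 for siRelA and 3 to 7 for siRelB, and for the difference between the sets 2 to 5 were lower. The counts that rose ran from 0 to 1 for EBSS against mock, 0 to 1 for siRelB, 0 to 1 for siNupr1 by hours and 0 to 3 for siRelB against siRelA. A lone array left in an arm is assumed to vary like the others. Where an array of the comparison itself was left out, falls over all genes also became fewer at 3 h, at 6 h and with each siRNA. Without both 0 h arrays 5 fell with siNupr1.

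For 9 h against 3 h, 0 members fell without a filter on dim genes, 1 with 20% of genes left out, 0 after quantile normalization, 0 with array weights and 1 with the set fitted alone. Array weights gave 1 higher with siNupr1, 1 higher and 8 lower with siRelB, 2 higher for siRelB against siRelA and 2 lower between the sets. The sets fitted alone gave 3 higher for siRelB against siRelA and 5 higher for siNupr1 by hours. The cause was not tested. Quantile normalization moved the share of rises among all called genes to 42.7% at 3 h, 44.4% at 6 h and 52.5% for 9 h against 3 h, against 26.5%, 32.7% and 63.8%, while the members' medians at 3 and 6 h were -0.40 and -0.60. Replicates could not be paired across groups, because every group holds 1 array and there is no replicate number to block on. The pairs counted in the text are arrays of 1 set that share the siRNA or the state, which are terms of the fit.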

Other observations

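Of 9 tested genes of non-homologous end joining, which ligates broken ends directly, 4 fell and 2 rose between EBSS and mock, 0 changed at 3 h and 1 fell at 6 and at 9 h. Over all genes 29.3% fell and 22.6% rose between EBSS and mock, and 15.7% and 15.1% fell at 6 and 9 h, so the rises and the counts over hours are near those shares. XRCC4, the ligase scaffold, differed by -1.09 ± 0.14 between EBSS and mock and by -1.02 ± 0.17 with siRelA, and rose by 0.34 ± 0.12 with siNupr1 (limma, adjusted p = 1.99e-06, 0.000231 and 0.048). PRKDC, the DNA-dependent kinase, fell by 0.83 ± 0.08 between EBSS and mock, and POLL, a gap-filling polymerase, rose by 0.51 ± 0.12. POLL also rose with siRelA by 0.52 ± 0.14 and with siRelB by 0.73 ± 0.14.

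Of 20 tested genes of excision and mismatch repair 11 fell and 2 rose between EBSS and mock, where 29.3% of all genes fell and 22.6% rose. At 9 h against 0 h 10 fell and 0 rose, where 15.1% of all genes fell and 9.19% rose. MSH6, which recognises mismatches, fell by 1.10 ± 0.11 between EBSS and mock and by 0.85 ± 0.13 at 9 h, and UNG, which removes uracil, by 0.91 ± 0.14 at 9 h. DDB2, a sensor of ultraviolet damage, rose by 0.54 ± 0.10 between EBSS and mock. With siRNAs 0 or 1 of the 20 fell in each silencing, where 8.58%, 11.4% and 8.55% of all genes fell with siNupr1, siRelA and siRelB. In the same order 3, 2 and 2 rose, near the 9.86%, 10.1% and 7.58% of all genes that rose. Among the genes that rose were ERCC2, a helicase of excision repair, with siNupr1 and siRelA (0.42 ± 0.10 and 0.39 ± 0.14) and XPC, a damage sensor, with siRelB (0.56 ± 0.13).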
